A study of Mus musculus with 42 samples.

Results

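Kallikreins and other trypsin-like serine protease genes were followed in RNA of thymic epithelial cells (TEC) sorted from mice. TEC form the stroma of the thymus on which T cells develop. The 92 genes are the rows of the count table whose symbol begins with Klk, Prss, Cela, Try or Tmprss and a number, or is Ctrb1, Ctrc or Ctrl. Of 104 symbols that matched, 11 pseudogenes and Prss16, a protease gene that marks cortical TEC, were left out, and the table holds 53465 genes in all. By role they are 13 digestive proteases, 14 glandular kallikreins (Klk1 and the Klk1b genes), 12 kallikrein-related peptidases (Klk4 to Klk15), 36 other Prss genes and 17 transmembrane serine proteases (Tmprss). The rule goes by name and not by a measured value, but it was chosen with earlier results of these data known.

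Serine proteases of this family are made as inactive precursors and cut proteins next to chosen residues once activated. Trypsins, chymotrypsins and elastases are made by the acinar cells of the pancreas, glandular kallikreins by salivary glands and kidney, and kallikrein-related peptidases by skin, tooth, brain and other epithelia. Medullary TEC are known for transcribing many such tissue-restricted genes at a low level, each in a small fraction of cells, which exposes developing T cells to the body's own proteins, and AIRE is a main activator of that program. Cortical TEC are not known for it.

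The series compares medullary and cortical TEC for a deletion, specific to TEC, of the corepressor gene Ski. Cortical TEC (cTEC) were gated as Epcam+CD45-UEA-Ly51+ cells, and medullary TEC (mTEC) as UEA+ Ly51-low cells with low or high MHC class II (MHCII-low and MHCII-high mTEC). The genotype labels are Control, KO and Ski flox Control, and the sources used here do not give the promoter that drives the deletion, the age of the mice or the number of animals behind a library. Each library was made from 200 sorted cells, and 40 of 42 libraries, with 3217251 to 7068077 counts each, were used. These are 5 Control, 7 KO and 2 Ski flox Control libraries of cTEC, and 4, 7 and 2 of each medullary subset. Replicates are numbered here in accession order within a group, since the labels give no number. Replicate 2 of the MHCII-low and of the MHCII-high Control libraries held 82 and 41828 counts and was left out, so the medullary Control libraries are replicates 1, 3, 4 and 5. No label ties libraries to animals, so p-values measure only how these libraries scatter, and that scatter may be technical. In bulk samples, fewer cells that transcribe a gene and less RNA per cell cannot be told apart.

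The labels were checked against fixed markers. Aire lay between 279 and 1411 CPM (library counts scaled to a common total after TMM normalisation) in MHCII-high libraries and between 0 and 120 in cTEC. Cortical markers varied widely within the cortical gate, with Psmb11, the thymoproteasome subunit, between 6.51 and 1962 CPM in cTEC. Mean Ski was 16.8 ± 8.97 CPM (SD, n = 5) in Control and 16.4 ± 16.4 (n = 7) in KO cTEC. The MHCII-low means were 24.7 ± 15.2 (n = 4) and 6.52 ± 5.95 (n = 7), and the MHCII-high means 13.4 ± 6.57 (n = 4) and 6.16 ± 6.48 (n = 7). Control and KO overlapped in each subset, and reads from exons outside a deleted part would still be counted, so Ski does not check the KO label. By library number the libraries part into 19 early and 21 late ones, sets which no label names, and all Ski flox Control libraries are late.

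The protease genes were found mainly in the medulla. Of the 92 genes, 36 had at least 1 count in any of 14 cTEC libraries, 78 in any of 13 MHCII-low libraries and 87 in any of 13 MHCII-high libraries, and 88 had a count somewhere. The 4 without a count were Prss23os, Prss43, Prss46 and Prss54. Of the 56 genes without a count in cTEC, 52 were seen in mTEC, and 0 were seen in cTEC and not in mTEC. Per library, 4 to 12 of the genes were detected in cTEC (mean 9.07 ± 2.84, SD, n = 14), 12 to 56 in MHCII-low mTEC (30.7 ± 11.8, n = 13) and 29 to 61 in MHCII-high mTEC (48.8 ± 9.93, n = 13). Every MHCII-high library therefore held more of them than any cTEC library, while the ranges of the medullary subsets overlapped. At a common depth of 3000000 counts the means were 8.86, 29.9 and 47.9. The mean number of all genes detected per library differed as well, at 14444, 17190 and 18098. Thymocyte markers, 12 genes of which 0 were called between subsets, summed to 754 to 6167 CPM in cTEC, 133 to 4397 in MHCII-low and 11.8 to 1414 in MHCII-high libraries. Of 12 myeloid and dendritic markers, 1 (Lyz2) was higher than in cTEC in both medullary subsets of KO (log2 difference 2.72, SE 0.65, adjusted p = 0.00873 in MHCII-high, and 2.22, SE 0.64, adjusted p = 0.0374 in MHCII-low), the direction of the proteases. Their sum was 197 to 2529 CPM in cTEC, 486 to 5897 in MHCII-low and 920.3 to 2939 in MHCII-high libraries. The part of either list in these counts was not tested.

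**Figure D1:**
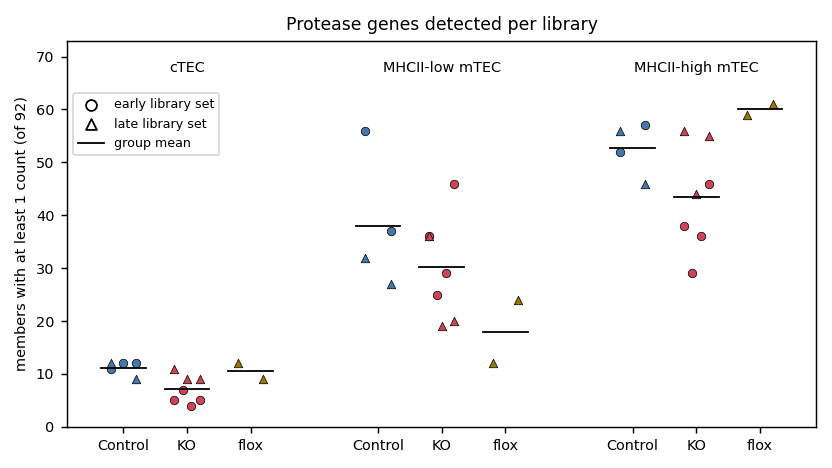
Number of the 92 protease genes with at least 1 count (y axis) in each of 40 libraries, by subset and genotype (x axis); circles are the early and triangles the late library set, and lines are group means. Libraries of cTEC hold 4 to 12 of the genes and MHCII-high libraries 29 to 61.

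By genotype, the 7 MHCII-high KO libraries held 38, 29, 36, 46, 56, 44 and 55 of the genes, the 4 Control libraries 52, 57, 56 and 46, and the 2 Ski flox Control libraries 59 and 61. The first 4 KO libraries belong to the early set and the other 3 to the late set. The same early KO libraries held 11989 to 16882 genes of any kind, against 18134 to 20251 in Control, 18776 to 20489 in the late KO libraries, and 20359 and 20387 in Ski flox Control. The part of that difference in the count of protease genes was not tested. In MHCII-low mTEC the Control libraries held 56, 37, 32 and 27 of the genes, the KO libraries 36, 25, 29, 46, 36, 19 and 20, and the Ski flox Control libraries 12 and 24. In cTEC they were 11, 12, 12, 12 and 9 in Control, 5, 7, 4, 5, 11, 9 and 9 in KO, and 12 and 9 in Ski flox Control.

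Together the genes took a small part of the RNA. Their summed level was 45.9 to 189 CPM in cTEC (median 83.1), 62.5 to 948 across MHCII-low libraries (median 468) and 766 to 4084 across MHCII-high libraries (median 1881). The median library therefore gave 0.00789% of its counts to them in cTEC, 0.0479% at low and 0.176% at high MHC class II. The MHCII-high range did not overlap that of cTEC.

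The question whether a gene differed between subsets was tested across all 23040 genes that passed a filter on low counts, of which 76 are protease genes, with edgeR's quasi-likelihood test and Benjamini-Hochberg adjustment at a threshold of 0.05. The other 16 protease genes had too few counts. Many of the 76 passed the filter only through the medullary libraries, so the counts below describe them and are not support for a difference of the group as a whole. In KO libraries, 50 of the 76 were higher in MHCII-high mTEC than in cTEC, where 12.9% of all genes tested were higher, and 1 was lower, where 1.82% of all genes were. In Control libraries, with fewer samples, 5 were higher, where 1.07% of all genes were. In MHCII-low mTEC against cTEC, 18 were higher in KO, beside 5.19% of all genes, and 1 was higher in Control, beside 0.703%. Their median log2 difference between MHCII-high mTEC and cTEC was 6.15 in Control and 7.34 in KO, or 4.57 and 5.72 with genes absent from a group placed at the limit of 3 counts, while the median of all genes was 0.25 and 0.28. For MHCII-low mTEC against cTEC it was 3.84 and 5.05, or 2.94 and 3.6 at that limit, beside 0.14 and 0.25 for all genes.

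These counts changed with the groups, libraries and tool used. With only the compared groups in the fit, the 51 calls in KO became 7 and the 18 became 0. Within the early set the 51 became 3 and within the late set 7, and the 18 became 0 in each. In Control the 5 calls became 0 within either set, 9 with only the compared groups, 15 with the library set as a covariate, 24 by DESeq2 and 30 by limma voom. The shares of all genes called in these settings are not given here. Whether the changes followed the number of all genes called was not tested.

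**Figure D2:**
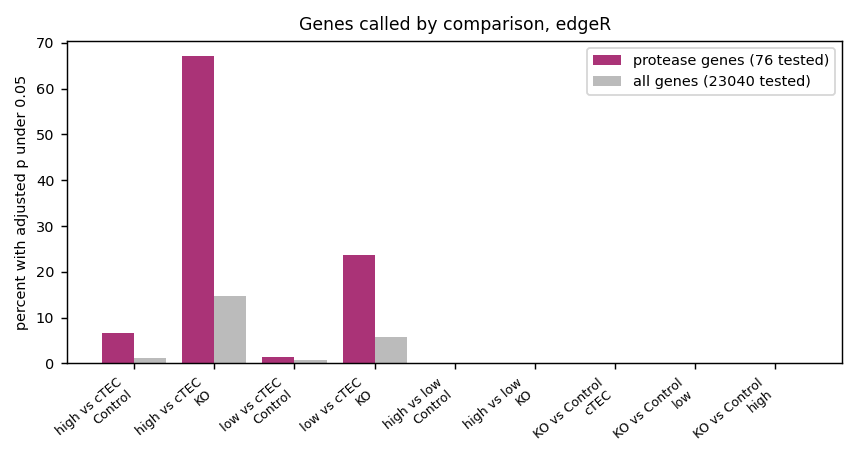
Percent of tested genes with an adjusted p under 0.05 in edgeR (y axis) in 9 comparisons (x axis), for the 76 protease genes tested and for all 23040 genes. Bars stand above 0 for the comparisons of mTEC with cTEC, and those of KO with Control are at 0 for the protease genes.

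The glandular kallikreins cleave kininogens and growth factor precursors in salivary gland and kidney, and the mouse has a large set of them from gene duplication. All 26 kallikrein genes lie side by side on chromosome 7, between 43690418 and 44229618 in GRCm38, and the 14 glandular genes lie at its end with the higher coordinates. All 14 were higher in MHCII-high mTEC than in cTEC in KO, beside 12.9% of all genes, and 3 in Control (Klk1, Klk1b8 and Klk1b9), beside 1.07%. In MHCII-low mTEC against cTEC, 6 were higher in KO, beside 5.19%, and 1 in Control (Klk1), beside 0.703%. Their summed level had medians of 0 CPM in Control and 0.196 in KO cTEC, of 107 and 188 in the MHCII-low and of 221 and 664 in the MHCII-high subset. Copies share sequence: between 10.1% and 33.9% of the 50-base stretches of each gene's exons also occur in another gene, so reads may be split or dropped between them, and single Klk1b values are less certain than those of Klk4 to Klk15, which share at most 0.427%.

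Most of the duplicated copies also share promoter sequence near the gene start. RefSeq promoter windows (GRCm38.p6, 250 bases before to 50 after the start) were matched for 74 of the 92 genes. The motif TTTAAA, which reads the same on both strands, was in 92.9% of the 14 windows of glandular kallikreins, in 12.7% of the 71 windows of the other genes and in 13.2% of all 32851 windows. The motif TATAAA, searched on both strands, was in 0.0%, 11.3% and 13.6% of them. Of the 14 glandular genes, 12 had TTTAAA 60 to 6 bases before the start. The 30-base stretches around the motif, which stands in capitals, were nearly alike in those 12. Prss29 (an implantation protease) and Prss2 (anionic trypsin) are shown for contrast with TATAAA. The 14 windows come from duplicated genes and are not independent, and a match is not a site.
Klk1b8, chr7:43950610-43950639, plus strand: agaatgagggttTTTAAAgtcaccccaagg
Klk1b1, chr7:43966706-43966735, plus strand: gagaatgagggaTTTAAAgtctccctaagg
Klk1b9, chr7:43976016-43976045, plus strand: agaatgagggttTTTAAAgtctccctgagg
Klk1b26, chr7:44012640-44012669, plus strand: agaatgagggtaTTTAAAatctcctgagga
Klk1b5, chr7:44216420-44216449, plus strand: agaatgagggttTTTAAAgtctccctgagg
Prss29, chr17:25318613-25318642, plus strand: tccagcttagcaTATAAAcccttcctcctg
Prss2, chr6:41521748-41521777, plus strand: tgtttagggaacTATAAAgacaggcactct
Klk1b9 and Klk1b5 have the same 30 bases, and their levels differed between libraries as follows.

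Klk1b9 (ENSMUSG00000059042, chromosome 7, 43976061 to 43980376), an epidermal growth factor binding protein of the salivary gland, had no count in any of 14 cTEC libraries. In MHCII-high mTEC it stood at 45.7, 4.68, 36.2 and 159 CPM in Control, at 2.42 to 207 with a median of 126 in KO, and at 28.3 and 24.1 in Ski flox Control. Every MHCII-high library was thus above every cTEC library. It was at least 608-fold higher in Control (log2 difference 11.23, SE 2.02, adjusted p = 0.00685) and at least 1283-fold higher in KO (12.09, SE 1.76, adjusted p = 0.000244), where a group without a count is placed at 3 counts over its summed library sizes. Both calls held without any single library. In MHCII-low mTEC the 4 Control libraries held 0.246, 0, 0.239 and 0 CPM, all below every MHCII-high Control library, and the 7 KO libraries held 0 to 68.4 with a median of 8.79. In Ski flox Control of that subset the counts were 0 and 36. The MHCII-low KO level was at least 270-fold above cTEC (log2 difference 9.84, SE 1.67, adjusted p = 0.00165).

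Klk1 (ENSMUSG00000063903, chromosome 7, 44225360 to 44229618), the tissue kallikrein that releases kinins, was high in both medullary subsets. It stood at 259, 7.46, 24.9 and 21.7 CPM in MHCII-low Control and at 77.8, 3.90, 3.79 and 50.4 in MHCII-high Control, and had no count in 5 cTEC Control libraries. In KO it was 0 to 151 (median 120) in MHCII-low, 9.50 to 599 (median 32.1) in MHCII-high and 0 to 12.8 (median 0) in cTEC. The medullary subsets overlapped, and 1 of the 2 cTEC Ski flox Control libraries held 24.7 CPM. Against cTEC it was called in MHCII-low (at least 775-fold, adjusted p = 0.0334) and MHCII-high Control (at least 337-fold, adjusted p = 0.0444), and in MHCII-low (39.2-fold, 0.0445) and MHCII-high KO (49.8-fold, 0.0229). The calls held in 4 of 9 and 0 of 9 fits without a single Control library, and in 3 of 14 and 13 of 14 without a single KO library, in that order.

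Klk1b1 (ENSMUSG00000063133, chromosome 7, 43966751 to 43971318) had no count in cTEC. It stood at 6.02, 0, 8.60 and 6.64 CPM in MHCII-high Control, at 16.3 to 165 (median 46.6) in KO, and at 49.99 and 15.9 in Ski flox Control. Every KO library was thus above every Control library, though KO against Control did not pass in edgeR. In KO it was at least 793-fold above cTEC (log2 difference 11.40, SE 2.18, adjusted p = 0.00303). In MHCII-low mTEC it stood at 46.9, 19.0, 0 and 0 CPM in Control and 0 to 25.3 (median 0.831) in KO, and the KO level was called above cTEC (8.13, SE 1.97, adjusted p = 0.0202).

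Klk1b8 (ENSMUSG00000063089, chromosome 7, 43950664 to 43954941), also without a count in cTEC, stood at 8.76, 54.0, 34.2 and 1.17 CPM in MHCII-high Control and 14.8 to 109 (median 43.8) in KO. In MHCII-low mTEC it was found in 1 of 4 Control libraries, at 70.3 CPM, and at 0 to 4.99 CPM in KO, below every MHCII-high KO library. Against cTEC it was at least 601-fold higher in KO (adjusted p = 0.00353) and at least 243-fold in Control (adjusted p = 0.0450), the latter in 1 of 9 fits without a single library. Klk1b5 (ENSMUSG00000066512) had no count in cTEC and was near 0 in MHCII-low mTEC, with 0.983 CPM as the highest Control and 1.85 as the highest KO library. In MHCII-high mTEC it stood at 3.56, 0, 10.4 and 0 CPM in Control and 0 to 227 (median 23.4) in KO, at least 545-fold above cTEC (adjusted p = 0.00499). Klk1b26 (ENSMUSG00000053719), a prorenin-cleaving kallikrein, was less sharply divided, with 66.6, 45.9, 0 and 0.261 CPM in MHCII-low Control, 17.0, 4.48, 57.4 and 7.81 in MHCII-high Control, and counts in 1 Control and 1 KO library of cTEC at 11.02 and 19.7 CPM. It reached 5.42 to 566 CPM (median 34.6) in MHCII-high KO, 53.0-fold above cTEC (adjusted p = 0.0323), a call that held in 9 of 14 fits without a single library.

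The kallikrein-related peptidases are single-copy proteases of skin, tooth and brain. In KO, 11 of the 12 were higher in MHCII-high mTEC than in cTEC, beside 12.9% of all genes. In MHCII-low mTEC 3 were (Klk4, Klk13 and Klk14), beside 5.19%. In Control 1 (Klk13) and 0 were, beside 1.07% and 0.703%. The exception in MHCII-high KO was Klk8 (neuropsin), named after its values were seen, which cTEC also held. It stood at 4.4, 25.02, 0, 15.1 and 14.5 CPM in cTEC Control and at 12.9, 20.5, 8.10 and 6.44 in MHCII-high Control (log2 difference 0.02, SE 1.35, adjusted p = 1), and the difference in KO was 2.52 (SE 1.14, adjusted p = 0.116).

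Klk4 (ENSMUSG00000006948, chromosome 7, 43881160 to 43885804), which clears enamel proteins from the forming tooth, had the highest level per length when the 3 MHCII-high genotype means were averaged. In MHCII-high mTEC it stood at 241, 192, 41.2 and 3.51 CPM in Control, 0.589 to 1007 (median 165) in KO, and 59.2 and 132 in Ski flox Control. In cTEC 1 Control library held 5.71 CPM and the other 13 libraries held none. MHCII-low mTEC lay between, with 14.7, 1.81, 0 and 0 CPM in Control and 0 to 41.8 (median 3.70) in KO. In KO, Klk4 was at least 2821-fold higher in MHCII-high mTEC (log2 difference 13.23, SE 2.43, adjusted p = 0.00155) and at least 120-fold higher in MHCII-low mTEC than in cTEC (8.68, SE 2.25, adjusted p = 0.0246). In Control the MHCII-high level was 105-fold that of cTEC and did not pass (adjusted p = 0.0901).

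Klk5 (ENSMUSG00000074155) and Klk7 (ENSMUSG00000030713), the tryptic and chymotryptic proteases that shed the outer skin layer and had no count in cTEC. Klk7 stood at 34.5, 185, 115 and 4.49 CPM in MHCII-high Control, 0 to 239.8 (median 6.22) in KO, and 176 and 113 in Ski flox Control. Klk5 stood at 34.5, 40.2, 104 and 1.17 CPM, 0 to 191 (median 13.4), and 114 and 58.2 in the same groups. Both were absent from the same MHCII-high KO library (replicate 2) and were high in KO replicates 1 and 3. In KO, Klk7 was at least 913-fold (adjusted p = 0.00707) and Klk5 at least 662-fold (adjusted p = 0.0103) higher than in cTEC. In MHCII-low mTEC, Klk7 was found in 2 of 4 Control and 2 of 7 KO libraries and Klk5 in 1 and 2, at 37.3 CPM or less.

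Klk6 (ENSMUSG00000050063, neurosin), a protease of myelinating glia, had no count in cTEC, and in MHCII-low mTEC it was found in 1 of 4 Control libraries, at 9.09 CPM, and 1 of 7 KO libraries, at 24.0. In MHCII-high mTEC it stood at 58.3, 3.31, 109 and 0 CPM in Control, 8.55 to 469.8 (median 45.4) in KO, and 197 and 124 in Ski flox Control. In KO it was at least 1340-fold above cTEC without overlap (log2 difference 12.15, SE 2.62, adjusted p = 0.00667). Klk13 (ENSMUSG00000054046) stood at 12.9, 12.5, 12.7 and 5.86 CPM in MHCII-high Control, the narrowest spread among these genes, and 0 to 134 (median 25.3) in KO. It was at least 109-fold higher than in cTEC in Control (adjusted p = 0.0497, held in 0 of 9 fits without a single library) and at least 455-fold in KO (adjusted p = 0.00270). In MHCII-low KO it reached 0 to 26.1 CPM (median 2.44), also above cTEC (log2 difference 8.02, SE 1.83, adjusted p = 0.0143).

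**Figure D3:**
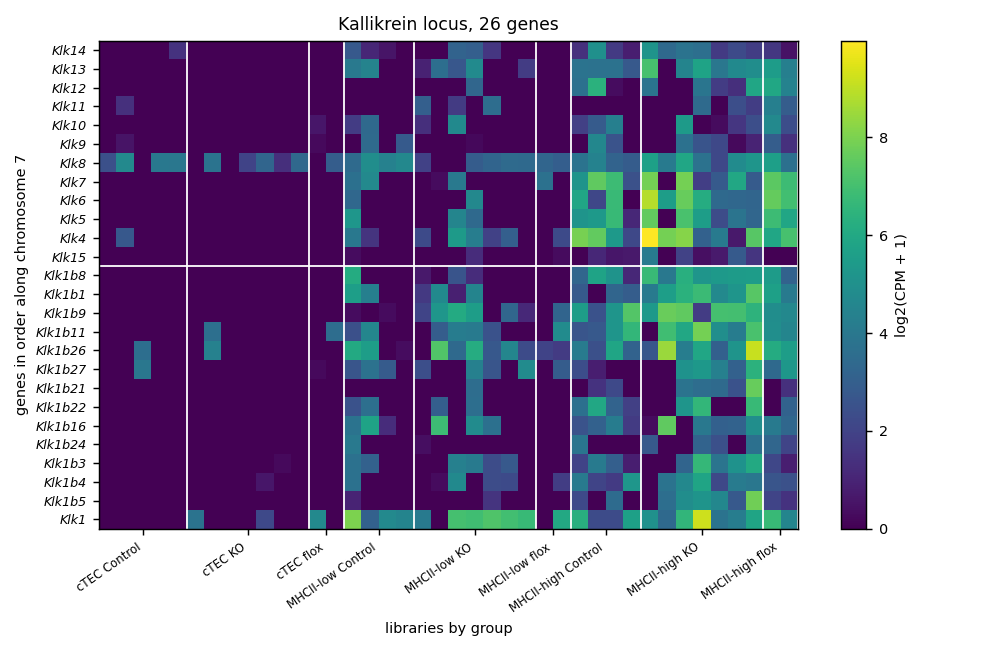
Level of the 26 kallikrein genes in their order along chromosome 7 (rows) in 40 libraries by group (columns), as log2(CPM + 1); the horizontal line parts the kallikrein-related from the glandular genes. Most cells of the cTEC columns are at 0, apart from Klk8, and each MHCII-high library shows 13 to 26 of the genes in its own mix.

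Within the locus, the mix of genes differed from library to library. MHCII-high libraries held 13 to 26 of the 26 kallikreins, with a summed level of 387 to 2365 CPM. The most abundant was Klk4 in 5 libraries, Klk1b9 in 3, Klk1b26 in 2, and Klk1, Klk6 and Klk7 in 1 each, and it took 17.0% to 42.6% of the library's kallikrein CPM. In MHCII-high KO replicate 1, Klk4 stood at 1007 CPM while Klk1b5 had no count, and in KO replicate 7 Klk1b26 was the most abundant at 566 CPM, with Klk1b5 at 227 and Klk4 at 165. Libraries of the same group thus shared the locus and not the leading gene.

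The digestive proteases are trypsins, chymotrypsins and elastases of the exocrine pancreas. In KO, 5 of the 12 tested were higher in MHCII-high mTEC than in cTEC, beside 12.9% of all genes, and 3 in MHCII-low mTEC, beside 5.19%. In Control 1 (Prss2) and 0 were, beside 1.07% and 0.703%. Their summed level had medians of 15.8 CPM in Control and 10.6 in KO cTEC, of 29.8 and 22.8 in the MHCII-low and of 249 and 155 in the MHCII-high subset. Prss2 (ENSMUSG00000057163, chromosome 6, 41521787 to 41525079) stood at 27.7, 104, 103 and 214 CPM in MHCII-high Control, 0 to 395 (median 21.6) in KO, and 0.833 and 17.1 in Ski flox Control. In cTEC 1 KO library held 2.75 CPM and the other 13 libraries held none, so all 4 MHCII-high Control libraries were above every cTEC library. The gene was at least 1112-fold higher than in cTEC in Control (log2 difference 12.10, SE 2.59, adjusted p = 0.0171), a call that held in 5 of 9 fits without a single library, and 260.1-fold in KO (7.90, SE 1.76, adjusted p = 0.00639). In MHCII-low mTEC the counts of Prss2 were 0, 35, 3 and 144 in Control and 0 to 462 in KO. The KO level there was called above cTEC (5.42, adjusted p = 0.0423), in 5 of 14 fits without a single library. The related trypsin genes were found in few libraries. Try5, named after its values were seen, had 95.1% of its MHCII-high level in 1 Control library (replicate 3, 642 CPM), and 47.6% of its 50-base stretches occur in another gene.

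Of the other Prss genes, 25 of 36 were tested. In KO, 11 were higher in MHCII-high mTEC than in cTEC, beside 12.9% of all genes, and 1 was lower, beside 1.82%. In MHCII-low mTEC 5 were higher in KO, beside 5.19%. In Control 0 passed, beside 1.07% and 0.703% of all genes higher in MHCII-high and MHCII-low mTEC. Prss29 (ENSMUSG00000034039, chromosome 17, 25318654 to 25322684), a protease of the uterine gland at implantation, stood at 19.99, 182, 5.31 and 2.93 CPM in MHCII-high Control, 5.05 to 828.7 (median 38.2) in KO, and 121 and 27.0 in Ski flox Control. In cTEC it was found in 1 Control library at 4.83 CPM and in 1 KO library at 0.503, and in MHCII-low mTEC at 23.8, 95.2, 0 and 0 CPM in Control and 0 to 7.14 in KO. The MHCII-high KO libraries held 6202 counts and the cTEC KO libraries 3, a ratio of 2210 with a 95% counting interval of 756 to 10718 (log2 difference 10.91, SE 2.08, adjusted p = 0.00162). Intervals and limits of this kind take no account of the spread between libraries. The intervals pool the reads of a group, and without molecular identifiers reads are not independent counts of molecules.

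Prss34 (ENSMUSG00000056399, chromosome 17, 25298394 to 25300165), a protease of mast cells and basophils, had no count in cTEC and stood at 44.6, 72.3, 39.97 and 0 CPM in MHCII-high Control and 0 to 242 (median 32.1) in KO. In MHCII-low mTEC its counts were 224, 312, 0 and 0 in Control and 0 to 152 in KO. The KO level there was called above cTEC (log2 difference 8.27, adjusted p = 0.0425), in 5 of 14 fits without a single library. In MHCII-high KO Prss34 was at least 1079-fold above cTEC (log2 difference 11.84, SE 2.58, adjusted p = 0.00707). Markers of mast cells and cytotoxic granules were read beside it. Of the 10 listed, 4 were higher (Tpsb2, Cma1, Tpsab1 and Mcpt4) and 1 lower (Cpa3) in the same comparison, and 2 (Ctsg and Elane) had no count in MHCII-high mTEC. Their summed level was 0 to 249 CPM in cTEC, 3.65 to 95.8 in MHCII-low and 32.9 to 281 in MHCII-high mTEC, and their part in the result was not tested.

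The single gene called lower was Prss23 (ENSMUSG00000039405, chromosome 7, 89507783 to 89527187), a secreted protease outside the kallikrein locus, named because it was the only one. It stood at 15.3, 0, 10.3, 2.32 and 7.08 CPM in cTEC Control and 0 to 31.8 (median 4.02) in KO. In MHCII-high mTEC all 7 KO libraries lacked a count and 1 of 4 Control libraries held 0.253 CPM. It was at least 99.4-fold lower in MHCII-high than in cortical KO cells (log2 difference -8.50, SE 2.28, adjusted p = 0.0181). Of 7 mesenchymal markers, 2 (Col3a1 and Lum) were lower in MHCII-high mTEC in the same comparison, beside 1.82% of all genes. The summed level of the 7 was 0.413 to 6110 CPM in cTEC and 29.995 to 178 in MHCII-high mTEC, so the ranges overlapped. Of 7 endothelial markers, 1 (Esam) was lower there as well (log2 difference -3.25, SE 1.14, adjusted p = 0.0495), and their sum was 17.9 to 494 CPM in cTEC and 1.48 to 114 in MHCII-high mTEC. The part of either list in the result was not tested.

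The transmembrane proteases sit on epithelial surfaces. Against cTEC in KO, 9 of 13 tested were higher in the MHCII-high subset, beside 12.9% of all genes, and 1 in the MHCII-low subset, a share near the 5.19% of all genes. In Control 0 passed. Tmprss4 (ENSMUSG00000032091, chromosome 9, 45172726 to 45204092), found in many epithelia, was counted in every MHCII-low library and its ranges overlapped between the medullary subsets. It stood at 37.3, 55.4, 51.6 and 8.09 CPM in MHCII-low Control and 59.4, 107, 42.8 and 91.0 in MHCII-high Control, and 0.732 to 22.3 CPM in 4 of 5 cTEC Control libraries, the fifth at 0. In KO the MHCII-high level was 1.78 to 166 (median 44.5) and 9.53-fold that of cTEC (adjusted p = 0.0456), a call that held in 5 of 14 fits without a single library. Tmprss11d (ENSMUSG00000061259), the airway trypsin-like protease, stood at 28.5, 31.2, 33.6 and 3.12 CPM in MHCII-high Control and 0 to 549.8 (median 93.6) in KO. It was 55.2-fold above cTEC in KO (adjusted p = 0.0367), in 7 of 14 fits without a single library. In MHCII-low mTEC its counts were 35, 75, 0 and 42 in Control and 0 to 312 in KO, and neither level passed against cTEC.

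**Figure D4:**
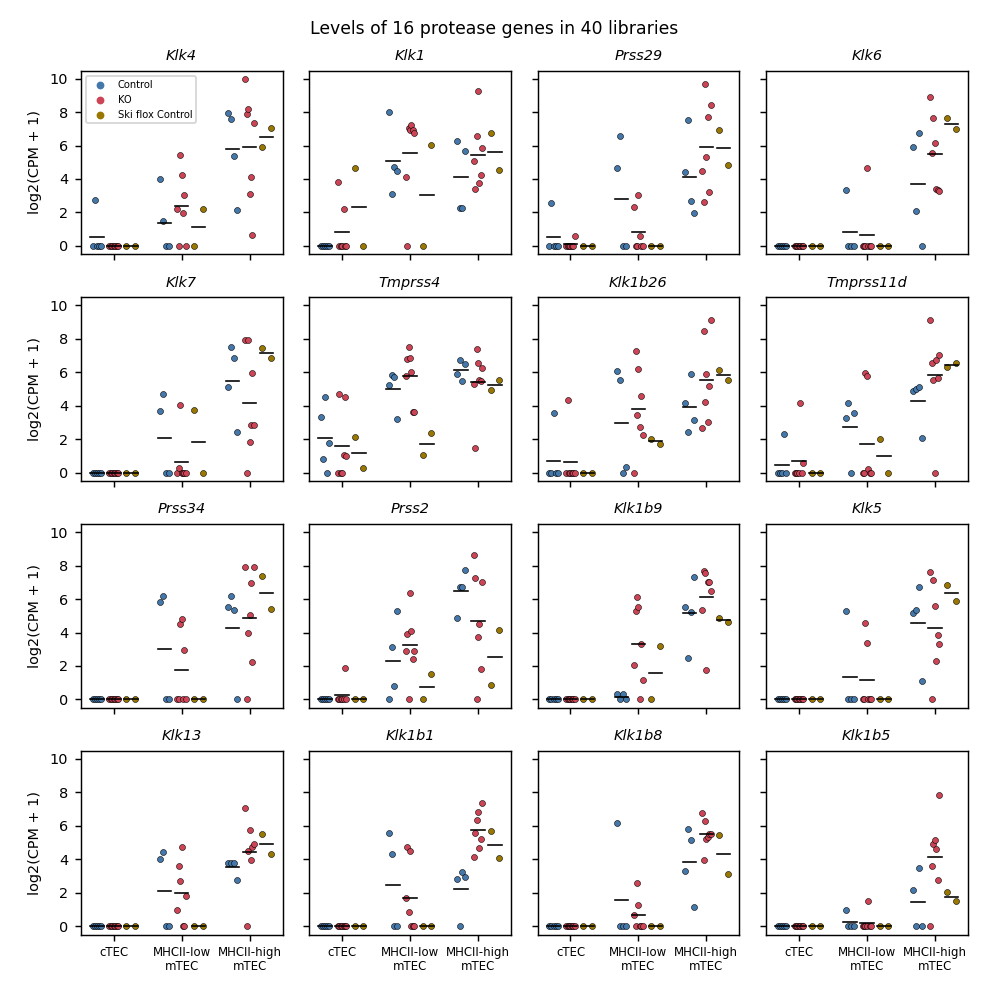
Level of 16 protease genes, as log2(CPM + 1) on the y axis, in 40 libraries by subset (x axis) and genotype (colour); each point is a library and each line a group mean on that scale. Klk5, Klk6, Klk7, Klk13, Klk1b1, Klk1b5, Klk1b8, Klk1b9 and Prss34 are at 0 in all cTEC libraries, and for Klk1 and Tmprss4 the ranges of the medullary subsets overlap.

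Levels were set side by side per kilobase of exon, as the mean of the 3 MHCII-high genotype means. Klk4 led at 122.8 CPM per kilobase, followed by Prss29 at 94.4, Prss2 at 91.3, Klk1b9 at 76.2, Klk6 at 70.5, Klk1 at 66.6, Prss34 at 64.4, Try5 at 63.8 and Klk1b11 at 56.8. These 9 held 50.4% of the summed level of all 92. The order differed by genotype, with Try5 first at 180.4 CPM per kilobase in Control, ahead of Prss2 at 137.7 and Klk4 at 95.7, Klk4 first at 196 in KO, and Klk6 first at 106 in Ski flox Control, where Klk4 stood at 76.5. The place of Try5 rests on MHCII-high Control replicate 3. Within Control or KO, the libraries of any of these genes ranged widely enough to overlap those of its neighbours in the order.

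The difference between the medullary subsets was less settled. With edgeR, 0 protease genes passed between MHCII-high and MHCII-low mTEC in Control (0.0% of all genes tested), and 0 in KO (0.0174%), although 11 and 32 of the 76 had an unadjusted p under 0.05 (14.5% and 42.1%, beside 7.47% and 17.5% of all genes). DESeq2 called 2 in Control (Klk1b9 and Try4) and 7 in KO, where it called 0.916% and 2.40% of all genes, and limma voom called 1 (Klk1b9) and 11, beside 0.343% and 2.76%. For Klk1b9 in Control the counts were 1147 and 2, a ratio of 530.2 (146 to 4384), with a log2 difference of 8.71 (SE 2.0) and an adjusted p of 0.661 in edgeR, 0.000117 in DESeq2 and 0.0144 in limma voom. In KO both other tools called Klk1b8 (52.3-fold, log2 difference 5.67, SE 1.66, edgeR adjusted p = 0.163), Klk1b5 (180-fold) and Prss29 (125-fold). Their MHCII-low KO levels reached at most 4.99, 1.85 and 7.14 CPM. For Klk1, by contrast, the edgeR log2 difference was -1.20 (SE 1.75) in Control and 0.35 (SE 1.31) in KO, and for Tmprss4 0.98 (SE 1.36) and -0.24 (SE 1.02), none of which passed.

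How many libraries held a gene also differed in description. A gene was found in a median of 0 of 14 cTEC, 3.5 of 13 MHCII-low and 7 of 13 MHCII-high libraries. Of the 92, 65 were in more MHCII-high than MHCII-low libraries, 13 in fewer and 14 in equal numbers. The same count over all genes is not given here. Genes of any kind were also detected in larger number per library, at a mean of 18098 in MHCII-high and 17190 in MHCII-low mTEC. Those in every library were 11 in MHCII-high mTEC, 1 in MHCII-low mTEC (Tmprss4) and 1 in cTEC (Prss36). Among the 62 genes found in 5 or more MHCII-high libraries, the highest library alone held 13.04% to 95.1% of the gene's summed level, with a median of 37.1%.

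**Figure D5:**
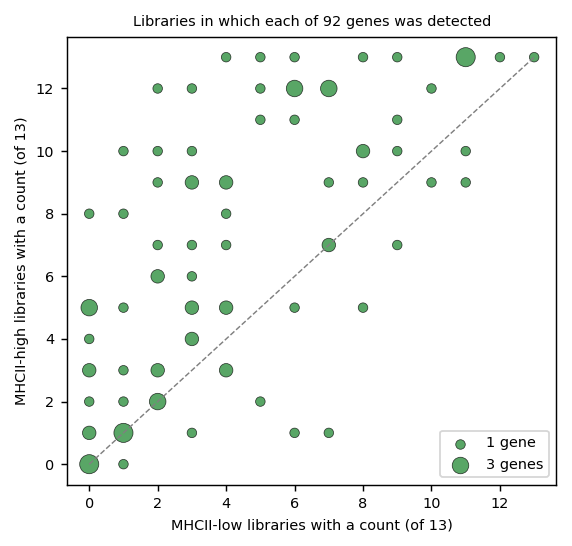
Number of 13 MHCII-low libraries (x axis) and of 13 MHCII-high libraries (y axis) in which each of the 92 genes had a count; point area gives the number of genes at a position and the dashed line marks equal numbers. Above the line lie 65 genes and below it 13, and the same count over all genes is not given here.

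KO and Control were compared within each subset to find genes that depend on Ski. With edgeR 0 protease genes passed in cTEC, MHCII-low or MHCII-high mTEC, where 0.0% of all genes did in each, and 11, 10 and 7 of the 76 had an unadjusted p under 0.05 (14.5%, 13.2% and 9.21%, beside 10.6%, 7.11% and 6.88% of all genes). The median log2 difference over the 76 was 0, 0 and 0.44. DESeq2 called 4 in cTEC (Klk1, Klk1b27, Prss30 and Prss37), 2 in MHCII-low (Klk1b9 and Tmprss9) and 2 in MHCII-high mTEC (Prss56 and Try4), beside 2.24%, 1.02% and 0.634% of all genes. Klk1, Prss37, Klk1b9 and Prss56 were higher in KO, and Klk1b27, Prss30, Tmprss9 and Try4 were lower. Klk1b27 rested on 104 counts in 1 Control library and Prss37 on 14 in 1 KO library. Prss56 rested on 341 and 93 counts in KO libraries and Try4 on 82 and 158 in Control libraries. The other libraries compared held none of these genes. Limma voom called 0 in each subset, beside 0.0434%, 0.0477% and 0.0608%. Klk1b9 in MHCII-low mTEC held 820 counts in KO and 2 in Control, a ratio of 194 (53.6 to 1606). Of 7 KO libraries, 6 were above every Control library (log2 difference 7.32, SE 1.87, adjusted p = 0.639 in edgeR, 0.000691 in DESeq2 and 0.617 in limma voom). The Ski flox Control libraries of that subset held 0 and 36 counts of Klk1b9. Klk1b1 in MHCII-high mTEC was 12.97-fold higher in KO (log2 difference 3.69, SE 1.91, edgeR adjusted p = 0.762). Its KO and Control values did not overlap there. The share of all genes without overlap was not counted, so no difference is read from that. Its libraries held 0 to 34 counts in Control, 75 to 849 in KO, and 240 and 80 in Ski flox Control.

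The KO effect did not pass as different between subsets for any protease gene in 3 edgeR comparisons (0.0% of all gene tests), while DESeq2 called 3 of 228 gene tests, beside 1.27% of all, and limma voom 0, beside 0.0159%. With Ski flox Control, which has 2 libraries per subset, edgeR called 0 in 6 comparisons with KO or Control (0.0% of all gene tests), DESeq2 32 of 456 tests, beside 2.87%, and limma voom 5, beside 0.259%. These comparisons share control libraries with those of KO and Control.

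Genes that act with the proteases, in lists chosen by function, were read in the same fits. Their counts stand beside the same shares of all genes, which were 12.9% higher in KO and 1.07% in Control for MHCII-high mTEC against cTEC, and 5.19% and 0.703% for MHCII-low mTEC. Of 16 listed inhibitors tested, mainly Kazal and Kunitz, 7 were higher in MHCII-high mTEC than in cTEC in KO and 1 in Control. In MHCII-low mTEC 4 and 2 were. The list also holds Wfdc2, of neither class, which was among the calls in both KO comparisons and in MHCII-low Control. The calls in MHCII-high mTEC include Spink5, which restrains the skin kallikreins (log2 difference 11.86, SE 2.30, adjusted p = 0.00222 in KO), and Spink1, the trypsin inhibitor of the pancreas (11.21, SE 2.26, adjusted p = 0.0105 in Control). Of 15 serpins, 2 were higher in KO (Serpina3k and Serpinb6a), a share near the 12.9% of all genes, and 0 in Control. In MHCII-low mTEC 2 and 0 were. Of 16 other exocrine pancreas genes, 8 were higher in KO, among them Reg1 (12.55, SE 2.47, adjusted p = 0.00353), Cel, Zg16 and Pnliprp1, and 1 in Control (Gp2), and 5 and 1 in MHCII-low mTEC.

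Receptors, activators and substrates of the proteases numbered 19 tested, of which 7 were higher in KO and 1 in Control, and 3 and 1 in MHCII-low mTEC. Dsg1a, a desmosomal cadherin that the skin kallikreins cleave, was higher in both (log2 difference 10.32, SE 1.17, adjusted p = 4.89e-06 in KO, and 11.65, SE 1.46, adjusted p = 5.12e-05 in Control). St14 (matriptase) and F2rl1, the protease-activated receptor, were higher in KO (2.91 and 5.0, adjusted p = 0.0151 and 0.0351). Of 13 regulators of promiscuous transcription, 6 were higher in KO, including Aire (4.25, SE 1.14, adjusted p = 0.0164), Fezf2, Spib and Sox8, and 1 in Control (Fezf2), and 3 and 0 in MHCII-low mTEC. The 5 lists had 0 genes called between the medullary subsets or between KO and Control in edgeR.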

How the data were processed

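The authors deposited raw read counts by Ensembl gene for 42 libraries, made with SMART-Seq v4 and Nextera XT per the labels' protocols, a chemistry without strand or molecular identifiers. The build GRCm38 and the tools SAMtools 1.2, FastQC 0.11.3, Picard 1.134 and HTSeq 0.4.1 are named per the submitters' processing notes. The sources used here do not give the aligner or the strand setting. No column lay outside the sample list. Symbols and positions came from GENCODE M21 (GRCm38; 53360 of 53465 identifiers matched). Libraries under 100000 counts were left out.

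Members and lists were chosen with earlier results of these data known. In R 4.3.3, edgeR 4.0.16 fitted 9 groups in 1 quasi-likelihood model (TMM; filterByExpr with minimum count 10 and total 15; 23040 of 37695 genes with a count; biological coefficient of variation 1.40; Benjamini-Hochberg threshold 0.05). The code was also run on simulated counts with less scatter than these libraries, so that run does not bear on the calls here. DESeq2 1.42.0 and limma 3.58.1 were alternatives, beside other filters, scaling, covariates, library sets and leaving out each library. Genes named in full are the 12 with the highest mean CPM and up to 8 with the smallest p among those called, 16 in all. Depth was 3217251 to 7068077 counts.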

Additional observations from a re-analysis of the deposited data

Results flagged for a closer look

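Named genes, and the number of protease genes detected, were tested for 1 library far from the others in groups of 4 to 7 libraries. Of 81 such tests, 22 were flagged, all for named genes. By chance about 1 in 20 would be, and several groups are otherwise at or near 0. In cTEC Control the high library was replicate 2 for Klk4 (5.71 CPM) and Prss29 (4.83), replicate 3 for Klk1b26 (11.02) and replicate 4 for Tmprss11d (3.94). In cTEC KO it was replicate 7 for Prss29 (0.503), replicate 2 for Klk1b26 (19.7), replicate 5 for Tmprss11d (17.2) and replicate 6 for Prss2 (2.75). MHCII-low Control replicate 1 was high for Klk6 (9.09), Klk5 (37.3), Klk1b8 (70.3) and Klk1b5 (0.983), and held 56 of the 92 genes, the most of its subset. In MHCII-low KO, replicate 4 was high for Klk6 (24.0), replicate 3 for Klk7 (15.2) and replicate 5 for Klk1b5 (1.85).

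In MHCII-high Control, replicate 5 was low for Tmprss11d (3.12 CPM), Prss34 (0) and Klk13 (5.86), and replicate 3 for Klk1b1 (0). In MHCII-high KO, replicate 2 was low for Tmprss4 (1.78), and replicate 4 for Tmprss11d (0) and Klk1b9 (2.42). The MHCII-high Control library left out for its depth, replicate 2, still held counts in 11 of the 92 genes, 96 of its 41828.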

How the results depend on the processing

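Counts of protease genes called varied with the setting, and values are given as the number called. Apart from the shares given above, the number of all genes called in each setting is not given here. Whether the changes followed that number was not tested. For MHCII-high mTEC against cTEC in Control (5), a filter of 10 CPM in 5 libraries gave 13, DESeq2 24, limma voom 30, the library set as a covariate 15, either set alone 0, only the compared groups 9, and leaving out single libraries 1 to 3. In KO (51), the filter gave 31, the early set 3, the late set 7, only the compared groups 7, and single libraries 37 to 51. For MHCII-low mTEC against cTEC in Control (1), the filter gave 7, DESeq2 21, limma voom 7, detected genes as a covariate 0, either set 0, only the compared groups 0, and single libraries 0 to 2. In KO (18), limma voom gave 10, either set 0, only the compared groups 0, and single libraries 8 to 25. Between the medullary subsets (0), DESeq2 gave 2 and limma voom 1 in Control, and DESeq2 7, limma voom 11, the set covariate 1 and the late set 3 in KO. For KO against Control (0), DESeq2 gave 2 in MHCII-high mTEC, 2 in MHCII-low mTEC and 4 in cTEC; between subsets (0) it gave 3, and for Ski flox Control (0) 32, with limma voom at 5. Leaving out single libraries left each of these at 0. The mean number of genes detected moved to 41.0, 22.8 and 7.21 in MHCII-high, MHCII-low and cortical cells with a minimum of 10 counts, and single libraries moved the means between 47.8 and 50.5, 28.6 and 32.3, and 8.85 and 9.46. Of 64 differences of named genes under these settings, 3 changed sign, none of them called: Klk4 in MHCII-low mTEC against cTEC became -0.90 without MHCII-low Control replicate 1 (7.33 without cTEC Control replicate 2, the other end of its range), and within the late set the KO differences became -0.16 for Prss29 and -6.15 for Tmprss11d. The cause was not tested. No paired analysis was run, since the labels give no replicate numbers and tie no library to an animal. Library numbers do run consecutively through cTEC, MHCII-low and MHCII-high libraries of the same genotype. A block on these runs was not fitted, and libraries were treated as independent. A gene at 0 in a library may be present below 3 counts.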
